A study of Arabidopsis thaliana with 11 samples.

Results

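A block of neighbouring loci on chromosome 1 of Arabidopsis thaliana, from AT1G24600 to AT1G25400, was followed over all arrays of the series. It holds a run of repeated loci with the LpxC genes and, further along, the gene MEE8. The members are all features of the array whose locus number lies in that range, 65 features of 54 loci out of 37118 features of 32627 loci. Each member feature rests on 4 probes, and 7 loci have several features. The block was picked because many of its loci differed between the study's groups, so the group differences of its members are given below as a description, without a test.

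The study compared dark-grown hypocotyls, the embryonic stems of seedlings, of accession Columbia on single-colour NimbleGen arrays. Wild-type hypocotyls (n = 6 arrays, numbers 1 to 6) were set against hypocotyls labelled atpme3-1 loss-of-function mutant (n = 5 arrays, numbers 1, 2, 3, 5 and 6), the line being named for the pectin methylesterase gene PME3. Both groups stood in the cold for 3 days at 4 °C, had 6 h of light at 20 °C and then 4 days of darkness, and were 96 h old. A replicate is a pool of about 300 hypocotyls, and replicates were harvested apart from each other. The mutant is a single allele, and the labels do not say where its insertion lies or how many lines it stands for.

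LpxC is known from bacteria as the deacetylase of the committed step in the synthesis of lipid A, the membrane anchor of lipopolysaccharide, and plants carry genes for the same pathway. ASB1 encodes the beta subunit of anthranilate synthase, which supplies ammonia from glutamine for the entry step of tryptophan synthesis, a route that also feeds auxin. In RefSeq's table of genes (assembly TAIR10.1) the locus numbers of the block follow a recurring order. Each of the 5 genes LpxC1 to LpxC5 has a locus directly before it, a locus directly after it and a second locus after that. This last position is held by AT1G24807, AT1G24909, AT1G25083 and AT1G25155 after LpxC1 to LpxC4, and by ASB1 (AT1G25220) after LpxC5. The table has 65 loci in the range, of which 12 have no feature in the value table, among them LpxC2, LpxC4, LpxC5 and AT1G25155. One array locus, AT1G24825, is not in that table and has no name here. Probe sequences were not used here, so signal of near-identical copies cannot be assigned to a single copy.

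The level of PME3 exceeded wild type on every array with the mutant label (14.41 ± 0.02 against 13.81 ± 0.06, log2 mean ± SD; exact two-sided permutation p = 0.00433, the smallest that 6 against 5 arrays can give), so these arrays are called labelled mutant throughout. All 6 markers of dark-grown hypocotyl tissue, such as the protochlorophyllide oxidoreductase gene PORA, lay at or above the 89.5th percentile of features in wild type; 1 of them, PHYA, passed as lower (-0.17 ± 0.056, limma adjusted p = 0.0395), with overlapping groups and a call lost in 8 of 11 fits without a single array. Median intensity lay between 3775.6 and 3909.2 on every array. Wild-type arrays whose numbers lie 3 apart correlated at 0.997 to 0.998 over all features, and the other wild-type pairs at 0.985 to 0.994. The exact test takes all arrays as independent, which was not tested for these close pairs. With arrays 3 numbers apart averaged, PME3 stayed higher (log2 difference 0.61, limma adjusted p = 0.000639). The mean of 8 root hair markers, relative to the wild-type mean on the log2 scale, was -0.40 to 0.49 in wild type and -2.80 to -1.23 on labelled mutant arrays; 8 of 8 fell. The mean of 8 seed markers was -0.44 to 0.23 in wild type and 1.28 to 1.65 on labelled mutant arrays, and 7 of 8 rose (limma, adjusted p under 0.05 over all features). At this threshold 13.6% of all features fell, 18.8% rose and 32.4% did either. Of 6 markers of green tissue, limma called 0 at this threshold and 1 as lower at an unadjusted p under 0.05. At the unadjusted threshold 17.4% of all features fell and 26.8% rose. In wild type LHCB1.1 lay at the 31.3rd percentile and the other green markers at the 90.9th or above. Brightness in wild type thus does not single out the markers of dark-grown tissue. None of these marker genes lies in the block, and their part in the values below was not tested. In these bulk samples, fewer cells of a type and less RNA per cell cannot be told apart.

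In the block, 22 features of 16 loci were at least 2-fold lower on the labelled mutant arrays and 2 features, AT1G24735 and MEE8, at least 2-fold higher. Of all features on the array, 2.69% were at least 2-fold lower and 1.22% at least 2-fold higher. At least 4-fold lower were 16 block features of 12 loci, against 0.757% of all features. The groups did not overlap for 34 block features, 29 lower and 5 higher on labelled mutant arrays, where 9.35% and 10.3% of all features did the same. Because this contrast led to the choice of the block, nothing is read from these shares. The median difference over the 65 block features was -0.08 on the log2 scale, against 0.04 over all features, so that the lower features stand among many with little difference. The chromosome 4 block from AT4G09000 to AT4G09590, also noted for lower loci, had 15 of 77 features at least 2-fold lower and 1 at least 2-fold higher.

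Most of the lower features lay between AT1G24792, directly before LpxC1, and AT1G25211, directly after LpxC5. This stretch is called the repeat span here. It leaves out ASB1, which belongs to the recurring order but was counted with the loci after the span. Of 12 features before the first LpxC neighbour, 1 was at least 2-fold lower; between AT1G24792 and AT1G25211 it was 21 of 27; from ASB1 to AT1G25400 it was 0 of 26. The median difference was 0.05, -3.15 and -0.03 in these stretches, as the plot of differences along the block shows.

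**Figure D1:**
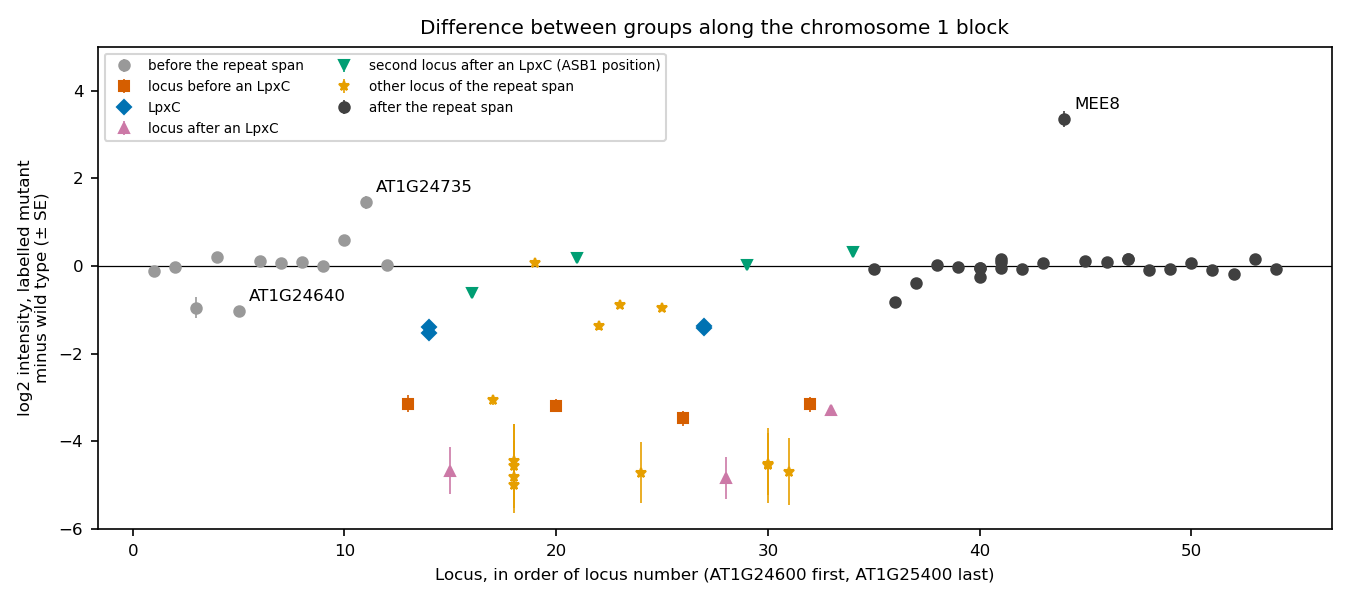
Difference of mean log2 intensity, labelled mutant (n = 5 arrays) minus wild type (n = 6), for all 65 features of the block, with the moderated standard error, against the rank of the locus by number. Features of the repeat span reach -5.00, the 4 loci before an LpxC lie between -3.47 and -3.14, and MEE8 stands alone at 3.36.

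Of the 5 loci directly before an LpxC gene, 4 have a feature, are annotated as transcribed pseudogenes and gave similar values; AT1G25141, before LpxC4, has no feature. AT1G24792 (before LpxC1) had intensities of 582, 506, 898, 359 and 534 on labelled mutant arrays 1, 2, 3, 5 and 6, and 4118, 5012 and 5639.8 as the lowest, median and highest of the 6 wild-type arrays. Every labelled mutant array lay far under every wild-type array. AT1G24879 (before LpxC2) differed by -3.19 ± 0.15, AT1G25053 (before LpxC3) by -3.47 ± 0.17, AT1G25209 (before LpxC5) by -3.15 ± 0.18 and AT1G24792 by -3.14 ± 0.19 (log2 difference of group means ± SE). In all 4 features labelled mutant 3 was the highest and labelled mutant 5 the lowest of the mutant arrays. Within wild type, replicates 3 and 6 were the lowest in all 4, an arrangement found in 15.7% of all features.

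LpxC itself lay less far below wild type than these neighbours. The first LpxC1 feature (AT1G24793_1) had 7559.9, 5098, 7999, 5630.5 and 5997 on labelled mutant arrays 1, 2, 3, 5 and 6 against 17541, 18152 and 19358 (lowest, median, highest) in wild type. The groups were apart, yet the labelled mutant mean stayed above the 60th percentile of all features. The second LpxC1 feature differed by -1.40 ± 0.087, and the LpxC3 features (AT1G25054) by -1.38 ± 0.097 and -1.41 ± 0.11, with -1.53 ± 0.11 for the first LpxC1 feature, all on the log2 scale. As a share of the wild-type mean intensity, the 4 LpxC features held 40.9% to 41.6% on labelled mutant 1, 27.8% to 36.2% on 2, 43.6% to 51.5% on 3, and 30.7% to 32.7% on 5, with 6 between 5 and 1 in each feature. Arrays 3 and 1 were thus the highest in each of the 4.

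Of the 3 measured loci directly after an LpxC gene, AT1G24800 and AT1G25055 lay further below wild type (-4.66 ± 0.53 and -4.83 ± 0.48 on the log2 scale) than any locus before one. AT1G24800 (after LpxC1) read 1032, 203, 2082, 206 and 628 on labelled mutant arrays 1, 2, 3, 5 and 6, and 13661, 14137 and 15000.1 (lowest, median, highest) in wild type. AT1G25055 (after LpxC3) gave 903, 219.8, 1847, 216 and 625 on those arrays against 13815, 15711 and 17572. In both loci labelled mutant 3 was the highest, 2 and 5 were near the bottom of the scale, and no array reached the wild-type range. AT1G25211 (after LpxC5), at 11.24 ± 0.12 in wild type (log2 mean ± SD), was at 7.96 ± 0.25 on labelled mutant arrays, a difference of -3.28 ± 0.11, and its mutant arrays lay close together.

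The loci at the position held by ASB1 did not lie far below wild type. ASB1 had 7780.4, 8196, 7939, 7521 and 7714 on labelled mutant arrays 1, 2, 3, 5 and 6 and 5865, 6134 and 6731 (lowest, median, highest) in wild type, a difference of 0.33 ± 0.044 on the log2 scale. Here every labelled mutant array lay above every wild-type array. AT1G24909 (second after LpxC2) was likewise slightly higher without overlap, at 0.18 ± 0.042. AT1G25083 (second after LpxC3) had 13265, 12708, 13764, 13342 and 13492 against 12579, 13247 and 13510.0, and its groups overlapped, with a difference of 0.02 ± 0.037. The dim feature AT1G24807 (second after LpxC1), at the 18.6th percentile in wild type, was lower at -0.61 ± 0.071. Its arrays ran from 232 to 255 in the labelled mutant and from 319 to 419 in wild type.

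The remaining 13 features of the repeat span, from 9 loci, differed most among themselves, from -5.00 to 0.08 on the log2 scale. AT1G24825 has 4 features, and its first read 1588, 111, 3338, 111 and 1176 on labelled mutant arrays 1, 2, 3, 5 and 6 against 15551, 16848 and 17921 (lowest, median, highest) in wild type. The other features of this locus differed by -5.00 ± 0.34, -4.56 ± 0.96 and -4.45 ± 0.85. Labelled mutant 2 and 5 sat close to the lowest intensity of any feature on the mutant arrays, 96.7 to 99.4, while 3, 1 and 6 were above it in that order. AT1G24996 (1368, 132, 2638, 146 and 904 on labelled mutant arrays 1, 2, 3, 5 and 6; wild-type lowest, median and highest 14356, 15139 and 15938) had the same layout. So did AT1G25098, annotated as a long non-coding RNA, at -4.55 ± 0.85 and -4.52 ± 0.71 in its features, and the non-coding RNA AT1G25175 at -4.69 ± 0.77.

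The mean difference of these loci depends on the arrays taken. For AT1G24825_3 it was -5.23 without labelled mutant 3 and -3.83 without labelled mutant 5, around -4.56 with all arrays. AT1G24822 was lower without this spread, at 191, 140.1, 208, 223 and 216 on labelled mutant arrays 1, 2, 3, 5 and 6 against 1445, 1588 and 1808 (lowest, median, highest) in wild type. Smaller differences without overlap were seen for the pseudogene AT1G24938 (-1.36 ± 0.099), for AT1G25025 (-0.95 ± 0.057) and for the dim pseudogene AT1G24967 (-0.88 ± 0.082). AT1G24851, among the brightest features at 14.23 ± 0.14 in wild type and 14.31 ± 0.14 on labelled mutant arrays (log2 mean ± SD), differed by 0.08 ± 0.082, with overlapping groups. With AT1G24909 and AT1G25083 it made up the 3 features of the run nearest to no difference.

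**Figure D2:**
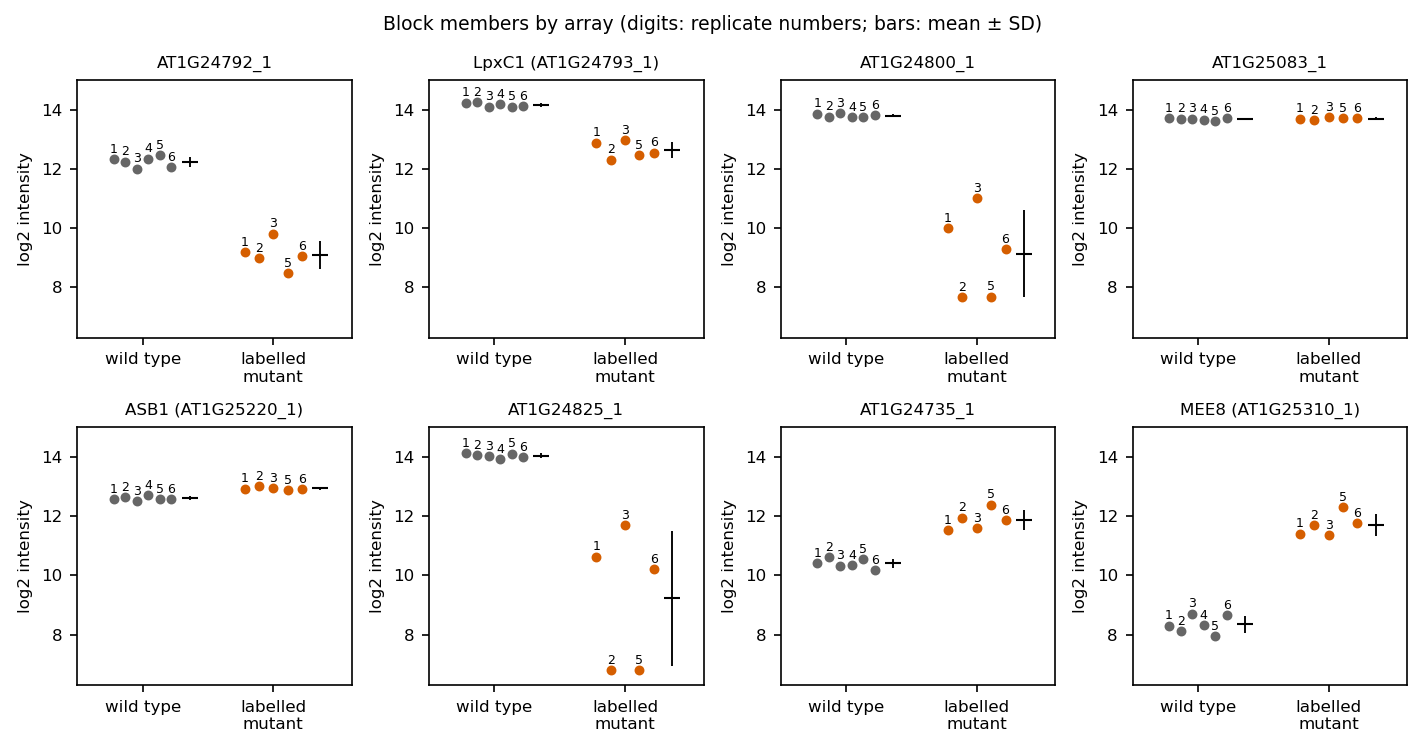
log2 intensity on each array (digits give the replicate number, bars the mean ± SD) for 8 block members, wild type (n = 6) and labelled mutant (n = 5). AT1G24800 and AT1G24825 spread over several log2 units on labelled mutant arrays with 2 and 5 lowest, while AT1G25083 and ASB1 are tight in both groups and MEE8 and AT1G24735 are higher on every labelled mutant array.

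The labelled mutant arrays were not alike in the repeat span, so the mean, SE and fold of these features average over unlike arrays. Whether the 5 pools were alike in genotype was not tested. The order described here was noticed once the values had been seen, and it is a description of the same arrays that led to the choice of the block. Labelled mutant 3 was the highest, followed by 1 and then 6, with 2 and 5 below them, in 16 block features of 11 loci. That order held in 2.14% of all features. It held in 13 of the 16 block features that were at least 4-fold lower, and in 18.1% of the 265 such features outside the block. It held in 16 of the 22 that were at least 2-fold lower, and in 6.66% of the 976 such features outside. Near-identical loci may report the same transcripts, so the features are not separate observations, and no test was made.

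In 10 block features of 6 loci, labelled mutant 2 and 5 both held less than 2% of the wild-type mean intensity. The share of all features that did so was not counted, and some outside the block are given below. The block loci were AT1G24800, AT1G24825, AT1G24996, AT1G25055, AT1G25098 and AT1G25175. Over these 10 features the median share of the wild-type mean was 19.6% on labelled mutant 3, 10.1% on 1, 6.32% on 6, 0.842% on 2 and 0.897% on 5. All 10 kept the order just given. The 4 measured loci before an LpxC spread less, with median shares of 16.8% on labelled mutant 3, 11.9% on 1, 10.6% on 6, 9.92% on 2 and 7.31% on 5; 3 of the 4 had the order, and in AT1G25053 labelled mutant 6 was above 1. The 10 features were picked for their low shares on labelled mutant 2 and 5. That choice favours a wider spread but puts no condition on 3, 1 and 6, so nothing is read from the comparison. The 10 features do not make up a single repeat position. AT1G25211, also directly after an LpxC, and AT1G24822, also among the other loci of the span, had SDs of 0.25 and 0.27 (log2, labelled mutant arrays). Both were dimmer in wild type (11.24 and 10.65, log2 mean) than any of the 10, the dimmest of which was at 12.59. On labelled mutant arrays they lay at or below the 15.9th percentile, where a small remaining signal can spread little. Whether brighter features there would spread as the 10 do was not tested. The plot by labelled mutant array shows each feature.

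**Figure D3:**
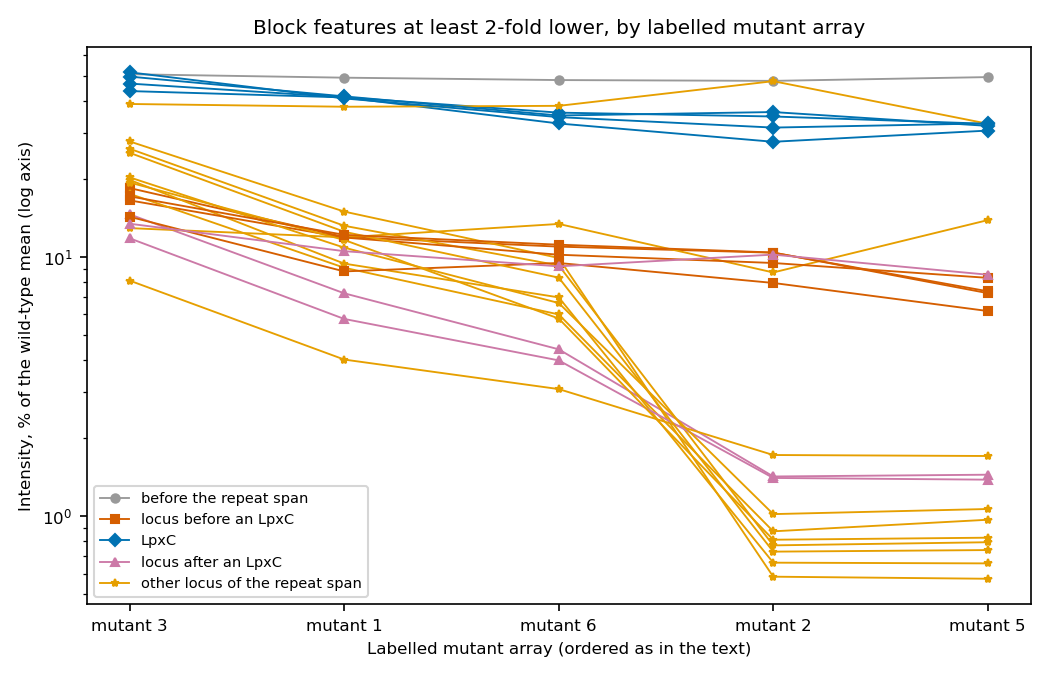
Intensity of the 22 block features that were at least 2-fold lower, as a percent of the wild-type mean (log axis), on each of the 5 labelled mutant arrays; each line is a feature, coloured by its position in the repeat. The 10 lowest lines drop below 2% on labelled mutant 2 and 5, while LpxC stays between 27.8% and 51.5% on every array.

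A standard deviation of at least 1 on the log2 scale over the labelled mutant arrays was found in 9 block features. They came from the 6 block loci where labelled mutant 2 and 5 held under 2% of the wild-type mean. Of all features, 0.124% (46 features) had such an SD. Over the wild-type arrays 0 of 65 block features reached it, where 0.213% of all features (79 features) did, more than over the labelled mutant arrays. Of the 37 such features outside the block, 21 features of 20 loci had the same order of labelled mutant arrays. Among these 21, 10 were at least 2-fold lower and 10 at least 2-fold higher than wild type on average. In 7 of the 21, labelled mutant 2 and 5 both held under 2% of the wild-type mean. These 7 include AT4G09200 and AT4G09250 of the chromosome 4 block. Chosen after their values were seen, AT2G04378_1 read 2266, 114, 4052, 118 and 1615 on labelled mutant arrays 1, 2, 3, 5 and 6, with a wild-type median of 14395. Conversely, HSD2 (AT3G47350_2) read 2012, 104, 3741, 106 and 1546 on those arrays with a wild-type median of 106, so that 2 and 5 lay near wild type there and 3, 1 and 6 far above it. In 9 of the 21 the wild-type mean lay in the dimmest 25% of features. The order of arrays seen in the block was thus shared by loci elsewhere, some lower and some higher than wild type. The mean of the root hair markers did not follow it (labelled mutant 6 highest at -1.23, 5 lowest at -2.80), and the mean of the seed markers was lowest on 2 (1.28) and highest on 6 (1.65). Among the 8 seed markers SESA3 had the order, at 14539, 10416, 16791, 13178 and 13578 on labelled mutant arrays 1, 2, 3, 5 and 6, and the related SESA4, no member of that list, is 1 of the 21 features.

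**Figure D4:**
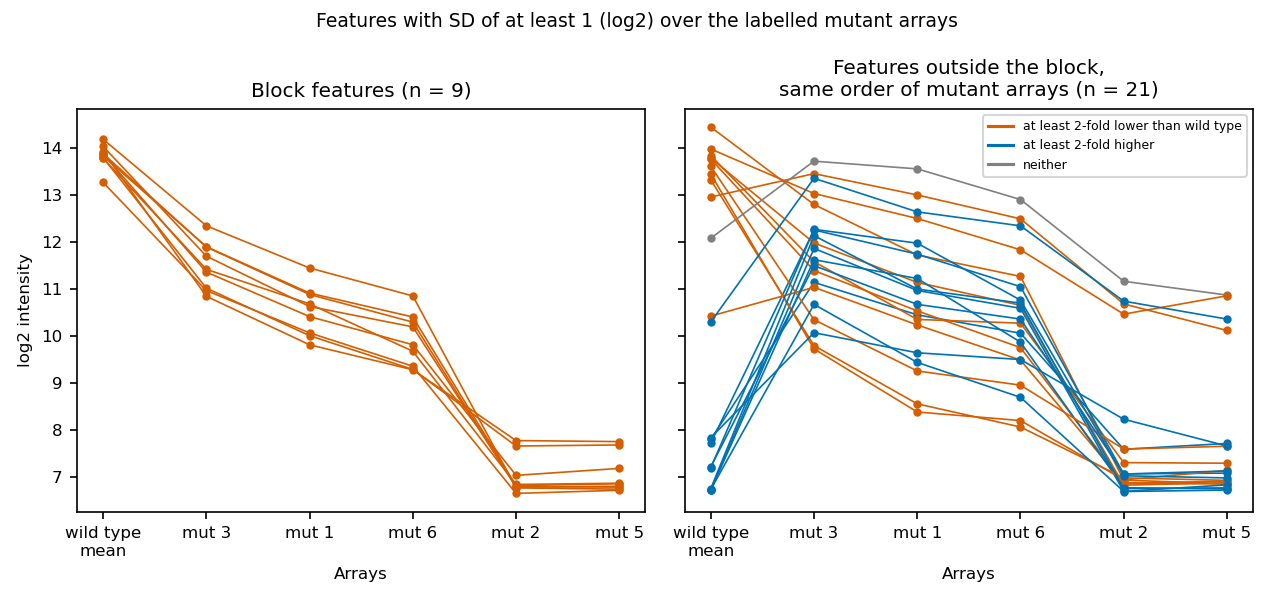
log2 intensity of features whose SD over the labelled mutant arrays is at least 1: the wild-type mean (n = 6 arrays) and each labelled mutant array, for the 9 block features (left) and the 21 features elsewhere with the same order of arrays (right, chosen by that order). Colours mark features at least 2-fold lower, at least 2-fold higher or neither; labelled mutant 2 and 5 lie below 3, 1 and 6 in all of them.

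Before the repeat span, most of the 12 features differed little. The mRNA export factor gene THO2 (0.01 ± 0.038), the microtubule-associated protein gene MAP70-2 (0.02 ± 0.039) and the zinc finger gene ZFP7 (0.21 ± 0.057) were bright and overlapped between groups. AT1G24735 was higher on every labelled mutant array, with 2938, 3959, 3069, 5347 and 3716 on 1, 2, 3, 5 and 6 against 1162, 1336 and 1561 (lowest, median, highest) in wild type, a difference of 1.45 ± 0.14. Its neighbour AT1G24733, a transcribed pseudogene, was higher by a smaller amount (0.59 ± 0.12). The pseudogene AT1G24640 was lower on all labelled mutant arrays (116, 113, 119.8, 117 and 114 against 201, 234 and 273), down to the 0.795th percentile of features, where fold changes are compressed. AT1G24620 read 208, 199, 228, 203 and 244 on labelled mutant arrays, and 729 and 679 on wild type 2 and 5 against 312 to 340.4 on the other 4 wild-type arrays. Wild type 2 and 5 lay above the other 4 wild-type arrays in 12.0% of all features. These 2 arrays also had the highest root hair marker means (0.49 and 0.47), and the part of root hairs in this value was not tested. The other 5 features before the repeat span lay between -0.10 and 0.11 and overlapped between groups.

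After the repeat span, MEE8 stood apart from its neighbours. MEE8, a basic helix-loop-helix gene named for maternal effect embryo arrest, had 2717, 3295, 2628, 5026 and 3508 on labelled mutant arrays 1, 2, 3, 5 and 6 and 249, 319 and 418 (lowest, median, highest) in wild type. Wild type was dim, at the 16.4th percentile, and no arrays overlapped; the difference of 3.36 ± 0.18 is 10.3-fold. Array 5 was the highest and arrays 1 and 3 the lowest of the labelled mutant, as for AT1G24733 and AT1G24735, an arrangement found in 2.58% of all features. The adjacent features AT1G25300 (0.07 ± 0.096) and AT1G25320 (0.12 ± 0.055) overlapped between groups.

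The other named loci of this flank differed less. CES, a basic helix-loop-helix gene of brassinosteroid signalling, was dim in both groups (7.54 ± 0.07 and 7.63 ± 0.07, log2 mean ± SD), as were the transporter gene UMAMIT24 (-0.01 ± 0.060) and MYB116 (0.16 ± 0.085 and 0.17 ± 0.071). The tubby-like gene TLP10 (0.09 ± 0.043, -0.05 ± 0.048 and 0.15 ± 0.053), the rhomboid-like gene RBL10 (-0.06 ± 0.050) and OVA9 (-0.10 ± 0.042), named for ovule abortion, were bright and overlapped. Lower without overlap were AT1G25240 (-0.83 ± 0.064), the zinc finger gene IDD16 (-0.40 ± 0.091) and the NAD+ transporter gene NDT2 (-0.18 ± 0.037). Among the unnamed loci of this flank, differences ran from -0.83 to 0.17, the latter at AT1G25390.

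The range has no step at its ends. Just inside, AT1G24600 differed by -0.10 ± 0.072 and AT1G25400 by -0.06 ± 0.040. Just outside, AT1G24580 differed by -0.37 ± 0.26, DRNL (AT1G24590) by 0.18 ± 0.057 and IPT6 (AT1G25410) by 0.20 ± 0.080, while the 3 features of AT1G25420 ran from -0.26 to 0.02.

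Genes of the same pathways elsewhere in the genome were not used to choose the block and were tested. Of 6 lipid A genes outside it, LpxA rose and LpxD1 fell, where 18.8% of all features rose, 13.6% fell and 32.4% did either. LpxD1, an acyltransferase of the step after LpxC, went from 10.66 ± 0.15 to 10.33 ± 0.15 (log2 mean ± SD, -0.33 ± 0.087, limma adjusted p = 0.0142), and its call held in all 11 fits without a single array. LpxA, the acyltransferase of the step before LpxC, went from 11.40 ± 0.13 to 11.65 ± 0.15 (0.25 ± 0.08, limma adjusted p = 0.0328), and its call was lost in 7 of the 11 fits, with adjusted p between 0.0503 and 0.0801 there. For both genes the groups overlapped. LpxA has 2 features, and with them averaged its difference was 0.11 (limma adjusted p = 0.286), so its rise rests on the brighter feature. LpxK (-0.09 ± 0.055, limma adjusted p = 0.24), LpxB (0.08 ± 0.052, 0.259) and LpxD2 (-0.08 ± 0.062, 0.31) did not pass. The median over the 6 genes was -0.09, against 0.04 over all features.

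Of 11 genes of tryptophan synthesis outside the block, 1 rose and 0 fell with limma at an adjusted p under 0.05, and 2 rose and 1 fell at an unadjusted p under 0.05. Of all features, 18.8% rose and 13.6% fell at the adjusted threshold, and 26.8% and 17.4% at the unadjusted one. PAI1, a phosphoribosylanthranilate isomerase, went from 13.63 ± 0.06 to 13.83 ± 0.07 (0.20 ± 0.045, limma adjusted p = 0.00562), without overlap between groups. With arrays whose numbers lie 3 apart averaged, which correlated most closely in wild type, PAI1 had a limma adjusted p of 0.0537 and 0 of the 11 genes passed. The tryptophan synthase genes TSB2 (0.12 ± 0.043, limma adjusted p = 0.0522), TSB1 (-0.14 ± 0.057, 0.0843) and TSA1 (-0.13 ± 0.064, 0.144) did not pass. The alpha subunit genes of anthranilate synthase, ASA1 (-0.01 ± 0.065) and ASA2 (-0.00 ± 0.05), did not pass either, with limma adjusted p = 0.942 and 0.972, and their groups overlapped. The median over the 11 genes was -0.03. The plot of pathway genes gives these differences beside those of the block members, which were chosen for theirs.

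**Figure D5:**
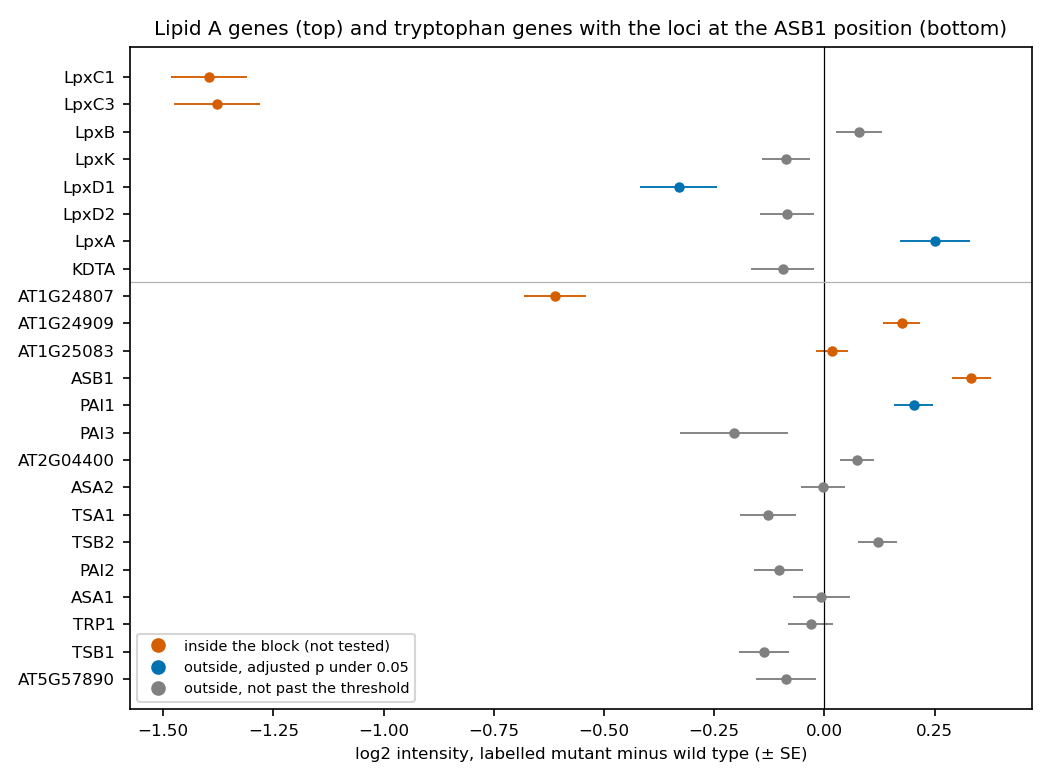
Difference of mean log2 intensity (labelled mutant, n = 5, minus wild type, n = 6; bars are the moderated SE) for LpxC and the 6 lipid A genes elsewhere (top), and for the loci at the ASB1 position and the 11 tryptophan genes elsewhere (bottom); each gene is shown by its brightest feature. LpxC1 and LpxC3 lie near -1.4, and genes outside the block between -0.33 and 0.25.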

How the data were processed

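The authors deposited a linear intensity for each feature of each array. The submitters' processing notes name RMA for the summary of probes; neither its version nor a genome build is given in the sources used here. Probe sequences were not used. The value table and the files of single arrays held the same intensities (largest difference 0). Per the file headers the files also give the number of probes of a feature. RMA as usually run brings arrays to a common distribution, so levels are relative, and dim features have compressed fold changes. Per-sample columns of other samples numbered 0. The number of arrays limits the precision. Symbols, biotypes and the order of loci came from the RefSeq gene table of TAIR10.1, which held 31993 of 32627 loci and 53 of the 54 block loci; coordinates and sequences were not used.

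Groups came from the labels. log2 intensities of all 37118 features were fitted by lmFit and eBayes of limma (version 3.58.1, under R 4.3.3) with group as the sole term, and p-values were adjusted by Benjamini-Hochberg and called under 0.05. The fit was tested on simulated arrays. Block members got no test. All block loci were counted. Named were the LpxC genes, their neighbours, MEE8, loci at least 2-fold different, flank loci with a symbol and the ends of the range; outside the block, genes past the threshold and up to 3 others of lowest p. Further loci were named after their values were seen. The block, the gene lists and the alternatives were chosen with earlier results of these data known. For a gene of a list, the brightest feature stood for it. Percent of wild type is intensity over the mean wild-type intensity. Protein similarity and closest paralogs, planned for the repeat families, were not used here, so families were set by locus order and symbol. Alternatives were a second quantile normalization, median and 75th percentile centring, leaving out the dimmest 25% of features, averaging features of a locus, array weights, a trended robust variance model, a replicate block, averaging arrays 3 numbers apart, and leaving out each array.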

Additional observations from a re-analysis of the deposited data

Results flagged for a closer look

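Among 166 groups of 5 or 6 arrays (the 65 block features, the 17 pathway genes outside the block and PME3), 10 held an array whose gap to the next was large for the range of its group by Dixon's 95% limit; chance alone gives about 1 in 20. All values are intensities. AT1G24610_1 was highest on labelled mutant 2 at 15232, against 12368 to 13041 on the other arrays of that group. AT1G24657_1 was highest on wild type 4 at 195, against 179 to 184 on the other arrays of that group. AT1G24825_4 was lowest on wild type 6 at 12557, against 14509.5 to 15794 on the other arrays of that group. AT1G25098_1 was highest on wild type 1 at 17427, against 14396 to 15106 on the other arrays of that group. AT1G25240_1 was highest on labelled mutant 2 at 836, against 766 to 782 on the other arrays of that group. AT1G25260_1 was lowest on labelled mutant 2 at 8761, against 10361 to 10771 on the other arrays of that group. LpxD1 was highest on labelled mutant 6 at 1560.0, against 1212 to 1240.4 on the other arrays of that group. LpxD2 was lowest on labelled mutant 2 at 3547, against 4124 to 4333 on the other arrays of that group. PAI3 was highest on labelled mutant 6 at 4008, against 2663 to 2959 on the other arrays of that group. AT2G04400_1 was highest on wild type 3 at 11968, against 10920.3 to 11197 on the other arrays of that group. Labelled mutant 2 accounts for 4 of these arrays.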

How the results depend on the processing

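The count of block features at least 2-fold lower was 21 to 23 in each alternative that kept features apart and 16 with features of a locus averaged, and 2 were at least 2-fold higher in every alternative run; PME3 stayed higher and past the threshold in all of them. With arrays 3 numbers apart averaged, which leaves 3 arrays a group, 3938 features rose and 3236 fell over the whole array, against 6989 and 5044. With the replicate number as a block, 5505 rose and 4226 fell, and of the pathway genes the block changed the call of LpxA alone (adjusted p = 0.108); the deviations of same-numbered samples from their group means correlated at 0.289, -0.061, 0.099, -0.027 and 0.051 for numbers 1, 2, 3, 5 and 6, so the numbers were not taken to pair the samples. The median difference over LpxC and the loci at the ASB1 position (-0.99) was -1.38 without the dimmest 25% of features, which drops AT1G24807, and -0.30 with features of a locus averaged, which leaves 2 LpxC values among 6. Without 1 array in turn it ran from -1.04 to -0.97. Lipid A genes past the threshold numbered 2, and 1 with features of a locus averaged, with the replicate block and with arrays 3 numbers apart averaged, and 1 to 2 without 1 array in turn. LpxA was the call lost. Its difference was 0.11 with its 2 features averaged (limma adjusted p = 0.286) and 0.24 with arrays 3 numbers apart averaged (limma adjusted p = 0.0778). Why its features differ was not tested. Tryptophan genes past the threshold numbered 1, and 2 with median centring, the trended robust model or array weights (TSB2 added) or features of a locus averaged (PAI3 added), and 1 to 2 without 1 array in turn. With arrays 3 numbers apart averaged 0 passed in limma, with 3 at an unadjusted p under 0.05, and PAI1 had an adjusted p of 0.0537. The closest paralogs outside the block were not run. Signals near the bottom of the scale on labelled mutant 2 and 5 limit how low a share of wild type can be measured.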
